A study of Mus musculus with 38 samples.

Results

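The genes described here build and maintain the postsynaptic side of the neuromuscular junction: the acetylcholine receptor subunits *Chrna1*, *Chrnb1*, *Chrnd* and *Chrne*, the organizers *Lrp4*, *Musk*, *Dok7* and *Rapsn*, and the transcription factor *Runx1*. Their promoters were read in mouse soleus, a postural muscle of the lower leg, by nAnT-iCAGE, a non-amplified form of Cap Analysis of Gene Expression in which each sequenced tag marks the capped 5′ end of an RNA. A promoter here is a cluster of such tags whose highest peak lies within 500 bp, on the same strand, of a 5′ end that GENCODE vM21 annotates for the gene in mm10. By this rule 7 of the 10819 clusters belonged to 7 of the 9 genes, with 1 cluster each. No cluster lay at *Chrnd* or *Chrne*, which encode the delta and epsilon subunits, so these genes are absent from the table and their level cannot be read from it.

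All 38 libraries came from male C57BL/6J mice of about 8 weeks, 1 library per mouse. The Pre mice had food ad libitum and were taken on day 1, the Mid mice went without food for 24 h and were taken on day 2, and the Post mice had food returned and were taken on day 3, all at zeitgeber hour 22. On day 2, the HiT mice were fasted at high ambient temperature and the Fed mice kept their food at the lower temperature, both of which prevent torpor, while the Dep mice were fasted but kept from entering torpor by handling, guided by their oxygen use. Whether the HiT and Fed mice had food is described differently by the labels and by the article, and the latter is followed. Experiment #1 has 8 Mid libraries and 4 each of the Pre, Post, HiT, Fed and Dep, and experiment #2, on another set of mice, has 2 Pre, 5 Mid and 3 Post libraries. Mid mice were taken whether or not they were torpid at that moment, so the group is one of fasted mice at an ambient temperature that permits torpor.

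At the junction, the motor nerve releases agrin, which binds LRP4 on the muscle membrane. LRP4 then activates the receptor tyrosine kinase MuSK, which needs the adaptor DOK7 from inside the cell, and rapsyn, the product of *Rapsn*, links the acetylcholine receptors into dense clusters under the nerve ending. In innervated muscle these genes are transcribed mainly by the few nuclei beneath the nerve ending, and loss of the nerve or of muscle activity raises several of them along the whole fiber, in part through myogenin and other factors that bind E-boxes (CANNTG). RUNX1 is low in innervated muscle and rises after denervation.

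The promoters were first placed in the genome, since the tags give the position of the start itself. The cluster of *Chrna1* spans chr2:73580264-73580511 on the minus strand with its peak at 73580326, and that of *Chrnb1* spans chr11:69795796-69795993 on the minus strand with its peak at 69795918. On the plus strand, *Lrp4* spans chr2:91457406-91457828 (peak 91457524), *Musk* chr4:58285614-58286189 (peak 58285968), *Dok7* chr5:35056714-35057189 (peak 35056887) and *Rapsn* chr2:91035554-91035940 (peak 91035625). *Runx1* is transcribed from a pair of well separated promoters, and its cluster at chr16:92697142-92697421 on the minus strand (peak 92697327) is the proximal one, 1 bp downstream of the start of Runx1-202. No cluster lay at the distal *Runx1* start at 92826149. The distance from peak to nearest annotated start was 13 bp at most for the 7 promoters, and no window held the start of another gene.

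Promoter windows of RefSeq (GRCm38.p6, 250 bases before to 50 after a gene's start) held the peak for 5 of the 7 genes, *Chrna1*, *Chrnb1*, *Musk*, *Dok7* and *Runx1*. They are shown because the E-boxes named above can be looked for in them. Each stretch runs 5′ to 3′ and ends 4 bases after the peak of the table. Capitals mark E-boxes and, near the end, the pyrimidine-purine step at which transcription commonly starts.

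*Chrna1*, chr2:73580322-73580426, minus strand: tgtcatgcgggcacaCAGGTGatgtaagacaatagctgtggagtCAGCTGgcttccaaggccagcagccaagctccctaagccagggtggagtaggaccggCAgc

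*Chrnb1*, chr11:69795914-69796018, minus strand: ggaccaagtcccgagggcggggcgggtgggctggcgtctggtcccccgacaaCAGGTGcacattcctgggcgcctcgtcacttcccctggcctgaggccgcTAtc

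*Musk*, chr4:58285868-58285972, plus strand: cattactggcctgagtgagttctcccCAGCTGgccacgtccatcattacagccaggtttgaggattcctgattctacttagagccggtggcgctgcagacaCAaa

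*Runx1*, chr16:92697323-92697427, minus strand: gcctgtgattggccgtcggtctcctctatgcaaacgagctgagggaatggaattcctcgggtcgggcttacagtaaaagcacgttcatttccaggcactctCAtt

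*Dok7*, chr5:35056862-35056891, plus strand: gaaagtgaccctgggctcaggcgcccagga

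The step ended 2 bases downstream of the listed peak in 4 of the 5 stretches, as CA in *Chrna1*, *Musk* and *Runx1* and as TA in *Chrnb1*, while *Dok7* had AG there. Over all clusters whose peak fell in such a window, the dinucleotide at this place was a pyrimidine-purine step in 77.5% of 2417 windows on the plus strand and in 79.2% of 2266 on the minus strand, against 22.2 and 23.5% at the listed peak. The peak of the table thus lay 2 bases upstream of the usual start base on both strands. In the whole windows of 300 bases, CANNTG (which reads the same on both strands) occurred 3 times in each of *Chrna1*, *Chrnb1* and *Musk* and 0 times in *Dok7* and *Runx1*, and 17.6% of the 32851 windows of the RefSeq table held 3 or more. CAGCTG, which is a form of CANNTG, occurred 2 times in *Chrna1* (1.9% of windows held 2 or more) and 1 time in *Musk* (16.3% held 1 or more). CCGGAA, searched on both strands as the core of the N-box to which the GABP factor binds, occurred 1 time, in *Runx1*, and in 14.9% of all windows. TATAAA on either strand occurred 1 time, in *Chrnb1*, 163 bases before the peak, and in 13.6% of all windows. The *Dok7* window began only 65 bases before its peak and so covered little of the sequence upstream of it.

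Between 18257657 and 39176649 tags fell in the clusters of a library of experiment #1, and between 9359994 and 20914855 in experiment #2. The 7 promoters had between 24 and 1662 tags in a library, and the lowest number was that of *Runx1*. Levels are given as normalised CPM, the tags of a promoter relative to all tags in clusters, in CPM, after TMM scaling, which was done separately in the 2 experiments. The TMM factors ran from 0.679 (library HiT 4) to 1.21. A change was called at a Benjamini-Hochberg FDR below 0.05 over all clusters by the quasi-likelihood F test of edgeR. All 8 slow fiber markers listed for the soleus had a cluster, as did all 11 fast fiber markers.

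The alpha subunit gene *Chrna1* encodes the chain that carries most of the acetylcholine binding site. In experiment #1 its promoter had levels of 38.3, 24.1, 24.9 and 28.7 normalised CPM in the HiT libraries, 21.5, 21.5, 20.4 and 21.4 in the Pre, and 14 (lowest), 17.7 (median) and 23.1 (highest) in the 8 Mid. The Post libraries had 12, 17.9, 21.2 and 18.3, the Fed 11.1, 14.7, 22 and 15.2, and the Dep 17.1, 14.3, 16.2 and 18.1. The HiT libraries were thus above every other library of the experiment, while all other groups overlapped with the Mid. The Mid was lower than the HiT by a log2 fold change of -0.72 (SE 0.16, FDR 0.000672). The HiT was also higher than the Fed (0.88, SE 0.19, FDR 0.000573), the Post (0.74, SE 0.19, FDR 0.00359) and the Dep (0.82, SE 0.19, FDR 0.00188), but not than the Pre at this threshold (FDR 0.0626). Against the Pre the HiT was called with only the compared groups in the fit (0.43, FDR 0.0369) or without library HiT 2 (0.53, FDR 0.0452). From the Pre to the Mid the change was -0.27 (SE 0.16, FDR 0.209), with 7 of 8 Mid libraries below all Pre libraries. In bulk muscle, fewer cells of a type and less RNA per cell cannot be told apart, here and in all results that follow.

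*Chrnb1* encodes the beta subunit, through which rapsyn holds the receptor. Its HiT libraries had 19.6, 25.1, 21.8 and 19.3 normalised CPM, the Post 16.9, 17.4, 16.4 and 16.2, and the Pre 13.7, 13.1, 15.4 and 14.8. The Mid ran from 11.4 to 17.4 with a median of 15.3, the Fed libraries had 17.6, 13.8, 11.3 and 15.7, and the Dep 17.9, 15.7, 13.3 and 18.8. Again all 4 HiT libraries were above the other 24 libraries. The Mid was lower than the HiT by -0.52 (SE 0.11, FDR 0.000638), and the HiT exceeded the Pre by 0.59 (SE 0.13, FDR 0.0012) and the Fed by 0.56 (SE 0.13, FDR 0.00164). The HiT was also called higher than the Post (0.36, SE 0.13, FDR 0.0424), but the FDR ran from 0.0625 to 0.161 when any 1 of these 8 libraries was left out. Against the Dep the HiT was higher too (0.39, SE 0.13, FDR 0.0319), a call lost without any 1 of the HiT libraries, Dep 2 or Dep 3. Between the Pre, Mid, Post, Fed and Dep no difference was called. Scaling by library size alone, without TMM, ended the calls of *Chrnb1* in the HiT against the Pre (0.42, FDR 0.0993) and the Fed (0.35, FDR 0.139). It also ended those against the Post (0.26, FDR 0.404) and the Dep (0.42, FDR 0.161), and that of *Chrna1* against the Post (0.64, FDR 0.0922).

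**Figure D1:**
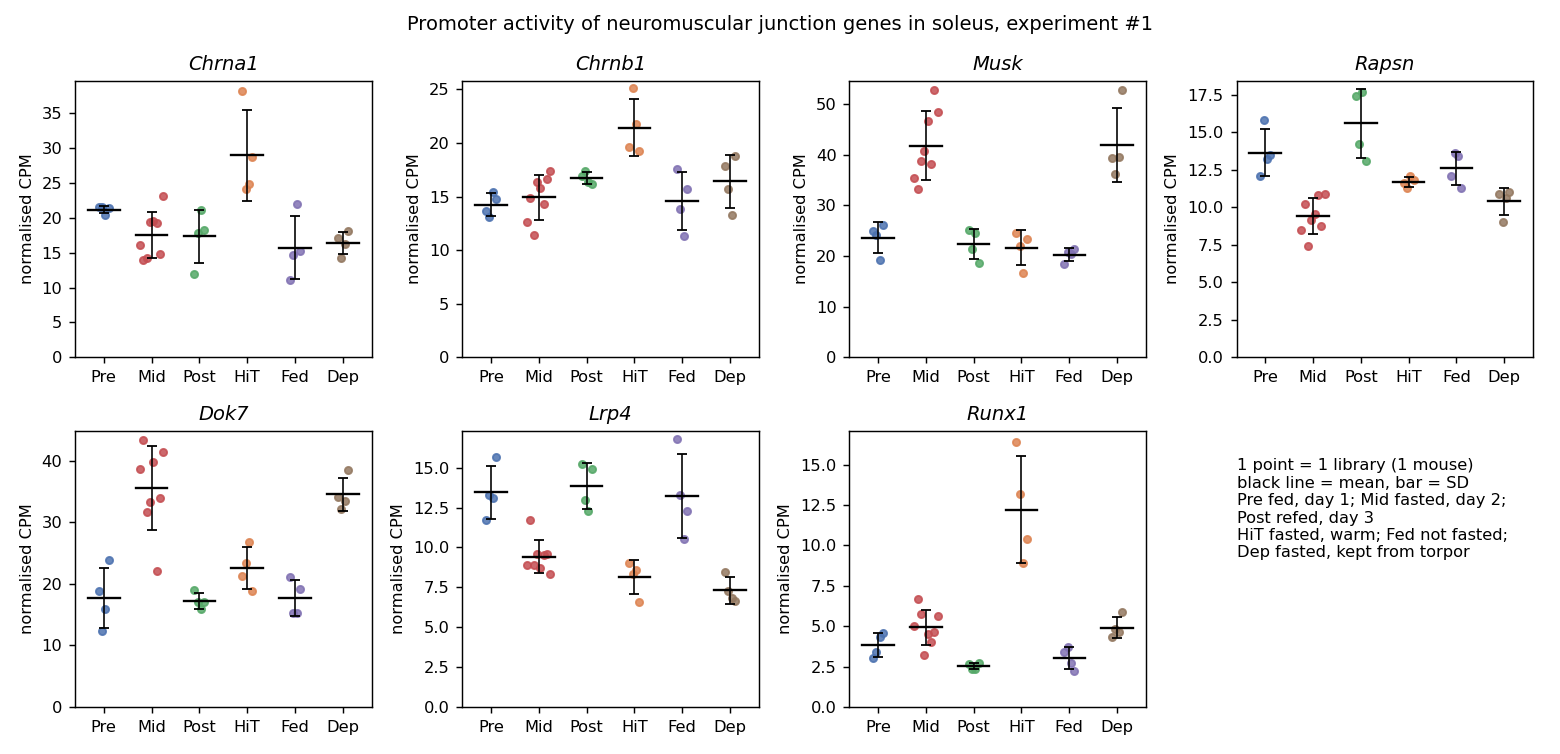
Levels of the 7 promoters in normalised CPM (y axes, from 0) in the 28 libraries of experiment #1 by group (x axes); 1 point is 1 library, the black line the mean and the bar the SD. *Musk* and *Dok7* are high and *Rapsn* is low in the Mid and Dep, and *Lrp4* is low in the Mid, Dep and HiT. *Chrna1*, *Chrnb1* and *Runx1* are highest in the HiT.

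*Lrp4*, the agrin receptor of muscle, was lower in all the fasted groups. Its promoter had 11.7, 13.3, 13.1 and 15.7 normalised CPM in the Pre libraries, 15.2, 13, 12.3 and 14.9 in the Post and 16.8, 13.3, 10.5 and 12.3 in the Fed. The Mid ran from 8.33 to 11.7 with a median of 9.23, the HiT libraries had 9.01, 8.31, 8.60 and 6.59, and the Dep 8.49, 7.26, 6.86 and 6.62. The HiT and Dep libraries lay below every Pre, Post and Fed library, and the Mid libraries below every Pre and Post library, with library Mid 2 alone reaching into the range of the Fed. *Lrp4* fell from the Pre to the Mid by 0.52 on the log2 scale (SE 0.11, FDR 0.000962) and rose from the Mid to the Post by 0.56 (SE 0.11, FDR 0.000354). The Mid was lower than the Fed by -0.49 (SE 0.11, FDR 0.00144). The HiT was lower than the Pre by -0.72 (SE 0.13, FDR 0.000133) and the Dep by -0.88 (SE 0.13, FDR 2.4e-05). Against the Mid, the HiT did not differ at the threshold (0.21 from the HiT to the Mid, 95% interval -0.03 to 0.44, FDR 0.159), nor did the Dep (-0.36, interval -0.61 to -0.12, FDR 0.097).

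*Musk*, which encodes the kinase, was high in fasted mice at the lower temperature and not in those kept warm. The Pre libraries had 24.9, 24.2, 19.3 and 26.2 normalised CPM, the Post 25.2, 21.3, 24.5 and 18.7, the HiT 24.6, 22, 16.7 and 23.3, and the Fed 18.4, 20.9, 20.5 and 21.4. The Mid ran from 33.2 to 52.8 with a median of 39.7, and the Dep libraries had 39.4, 36.3, 39.6 and 52.8. All 12 Mid and Dep libraries were above all 16 libraries of the other groups. *Musk* rose from the Pre to the Mid by 0.82 (SE 0.13, FDR 3.2e-05, 1.77-fold) and fell to the Post by 0.90 on the log2 scale (SE 0.13, FDR 7.04e-06). The Mid exceeded the HiT by 0.95 (SE 0.13, FDR 2.25e-06) and the Fed by 1.04 (SE 0.13, FDR 1.38e-06, 2.06-fold). The Dep exceeded the Pre by 0.83 (SE 0.14, FDR 0.000128), and from the Mid to the Dep the change was 0.01 with a 95% interval of -0.25 to 0.26. Among the Pre, Post, HiT and Fed, neighbours in the order of means did not differ at the threshold (FDR from 0.634 to 0.879).

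*Dok7*, the adaptor on which the activity of MuSK depends, had nearly the same pattern. Its Pre libraries had 18.8, 12.4, 15.9 and 23.9 normalised CPM, the Post 19, 17, 15.9 and 17, the HiT 21.2, 23.3, 26.8 and 18.9, and the Fed 21.1, 15.3, 15.2 and 19.1. The Mid ran from 22.1 to 43.3 with a median of 36.3, and the Dep libraries had 34.1, 32.2, 33.5 and 38.4. Library Mid 6, the lowest of its group, overlapped with the Pre and the HiT, and the other 7 Mid libraries were above both. *Dok7* rose from the Pre to the Mid by 1.00 (SE 0.16, FDR 3.08e-05, 2.00-fold) and fell to the Post by 1.05 on the log2 scale (SE 0.16, FDR 1.23e-05). The Mid exceeded the Fed by 1.01 (SE 0.16, FDR 2.24e-05) and the HiT by 0.66 (SE 0.15, FDR 0.00132). The Dep exceeded the Pre by 0.96 (SE 0.18, FDR 2e-04) and the HiT by 0.62 (SE 0.17, FDR 0.00952, given as -0.62 from the Dep to the HiT), the latter not without TMM (-0.60, FDR 0.0863), and differed from the Mid by -0.04 (95% interval -0.35 to 0.27). The HiT did not differ from the Pre at the threshold (FDR 0.134), but was called higher without library Pre 4 (0.52, FDR 0.0276).

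*Rapsn*, which encodes the receptor-clustering scaffold, moved the other way. The Pre libraries had 12.1, 15.8, 13.2 and 13.5 normalised CPM, the Post 17.4, 14.2, 17.7 and 13.1, the Fed 12.1, 13.6, 13.4 and 11.3, and the HiT 11.6, 11.3, 12.1 and 11.8. The Mid ran from 7.45 to 10.9 with a median of 9.33, and the Dep libraries had 10.9, 9.05, 10.6 and 11. Every Mid and Dep library was below every library of the other groups, although by little for the HiT. *Rapsn* fell from the Pre to the Mid by 0.54 on the log2 scale (SE 0.10, FDR 0.000192) and rose to the Post by 0.73 (SE 0.10, FDR 2.92e-06). The Mid was lower than the Fed by -0.42 (SE 0.10, FDR 0.00189). Against the HiT it was lower by -0.31 (SE 0.10, FDR 0.0138), a call that was lost without library HiT 3 (FDR 0.061) or HiT 4 (FDR 0.0626) and without TMM (-0.22, FDR 0.258). The Dep was lower than the Pre by -0.39 (SE 0.12, FDR 0.0139), which did not hold without library Pre 2 (FDR 0.0686) or Dep 2 (FDR 0.0556). Against the Fed the Dep was not called (-0.27, SE 0.12, FDR 0.0629), though it was without TMM (-0.50, FDR 0.0254) or without library Fed 4 (-0.33, FDR 0.0443). The change from the Dep to the HiT was not called either (0.17, SE 0.12, FDR 0.313). No neighbours in the order of means, from the Post over the Pre, Fed, HiT and Dep to the Mid, differed at the threshold.

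*Runx1*, a transcription factor that maintains muscle deprived of its nerve, had the largest difference between groups among the 7 promoters, in the HiT. Its HiT libraries had 16.4, 13.2, 8.91 and 10.4 normalised CPM, against 3.01, 3.40, 4.30 and 4.57 in the Pre and 2.66, 2.36, 2.37 and 2.69 in the Post. The Fed libraries had 3.41, 3.72, 2.73 and 2.24, the Dep 4.34, 4.82, 4.63 and 5.86, and the Mid ran from 3.20 to 6.66 with a median of 4.83. The HiT libraries were above all others and the Post libraries below all Mid libraries, while the Mid overlapped with the Pre, Fed and Dep. The HiT exceeded the Pre by 1.68 (SE 0.21, FDR 1.29e-06, 3.20-fold) and the Fed by 2.02 (SE 0.21, FDR 1.02e-07, 4.07-fold). The Mid was lower than the HiT by -1.31 (SE 0.17, FDR 1.08e-06). From the Mid to the Post *Runx1* fell by 0.96 on the log2 scale (SE 0.19, FDR 0.000331), and from the Fed to the Mid it was higher by 0.71 (SE 0.19, FDR 0.00445), the latter not without TMM (0.60, FDR 0.0636). From the Pre to the Mid the change was 0.37 (SE 0.18, FDR 0.134).

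RUNX1 is also made by blood cells, and the macrophage genes among their markers were higher in the HiT too. Of 14 blood cell markers, 7 had a cluster, and their summed level in the HiT libraries was 269, 195, 116 and 202 normalised CPM, against 38.1 to 59.9 in the Pre, 37.2 to 57.4 in the Mid, 42.6 to 69.3 in the Post and 39.6 to 68.8 in the Fed. From the HiT to the Mid 3 of these 7 markers were called lower and 0 higher, beside 41.0% of all clusters called in either direction. The macrophage genes *Csf1r* and *Lyz2* had 42.8 ± 14.5 and 133 ± 44.9 normalised CPM in the HiT, against 15.4 ± 2.75 and 26.8 ± 4.26 in the Mid (SD, n = 4 and 8), while the neutrophil gene *Ngp* was at 0 in all 4 HiT libraries. Library Dep 1 had a summed level of 211 with *Runx1* at 4.34, the lowest of the Dep, whose other libraries had sums of 31.8 to 51.9. The sums held different cells, since macrophage genes were high in the HiT. In the Dep, neutrophil genes were high in library Dep 1 alone, with 60.5 for *Camp* and 26.6 for *S100a8*. The Dep means were 15.1 ± 30.2 and 7 ± 13.1 (SD, n = 4). The summed level of 8 fibroblast and tendon markers was 2580 to 5360 in the HiT and 1770 to 3300 in the Mid. That of the 8 slow fiber markers was 11100 to 14200 and 13300 to 18400, and that of the 11 fast fiber markers 19200 to 22400 and 18600 to 28200. The sum of 5 nerve markers was 67.6 to 256 in the HiT, 87.4 to 204 in the Mid and 137 to 752 in the Pre. From the Pre to the Mid 1 of these 5 was called lower and 0 higher, beside 30.2% of all clusters. The part of all these cell types in the HiT levels of *Runx1*, *Chrna1* and *Chrnb1*, and of nerve in the changes from the Pre to the Mid, was not tested.

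**Figure D2:**
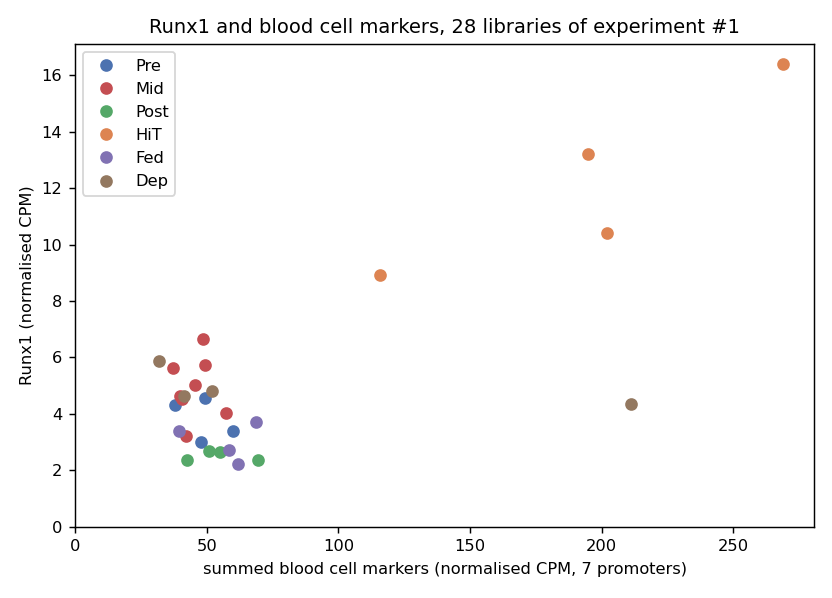
*Runx1* (y axis, normalised CPM) against the summed level of 7 blood cell markers (x axis, normalised CPM) in the 28 libraries of experiment #1, 1 point per library. The 4 HiT libraries lie at 8.91 to 16.4 on the y axis and 116 to 269 on the x axis, and library Dep 1 at 4.34 and 211.

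For each comparison, the number of the 7 promoters called was read against the share of all 10776 clusters called in it. From the Pre to the Mid 4 of 7 promoters were called (*Musk* and *Dok7* higher, *Rapsn* and *Lrp4* lower) beside 30.2% of all clusters, and from the Mid to the Post 5 of 7 beside 35%. From the HiT to the Mid 6 of 7 were called beside 41.0%, with *Lrp4* as the exception, and from the Fed to the Mid 5 of 7 beside 35.2%, without the receptor genes. These comparisons share the Mid libraries and so are not independent of each other. From the Mid to the Dep 0 of 7 were called by the quasi-likelihood test, beside 2.03% of all clusters, with 1 (*Lrp4*, FDR 0.097) at an unadjusted p below 0.05 and 0 by DESeq2 or the likelihood ratio test. From the Pre to the Post 0 of 7 were also called beside 1.85% (1 at an unadjusted p below 0.05, 0 by the other tests), and from the Pre to the Fed 0 beside 11.2% (1 and 0). From the Pre to the HiT 3 of 7 were called (*Chrnb1* and *Runx1* higher, *Lrp4* lower) beside 33.4%, and from the Pre to the Dep 4 of 7 beside 25.8%. Between the HiT and the Fed 4 were called beside 43.2%, between the HiT and the Post 5 beside 29.2% and between the HiT and the Dep 5 beside 26.5%, and without TMM 3 were called in each of the last 2 comparisons. Between the Dep and the Fed 4 were called beside 38.6%, and between the Dep and the Post 5 beside 24.6%. Between the Fed and the Post 0 were called beside 22.2%, with 1 at an unadjusted p below 0.05 (*Rapsn*, -0.31, FDR 0.0547 by edgeR and 0.0352 by DESeq2). The 15 pairs reuse the same 6 groups, and the share of all clusters called in them ran from 1.85 to 43.2%. Single promoters were called in 4 of 15 pairs (*Chrna1*) to 9 of 15 (*Lrp4* and *Runx1*).

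**Figure D3:**
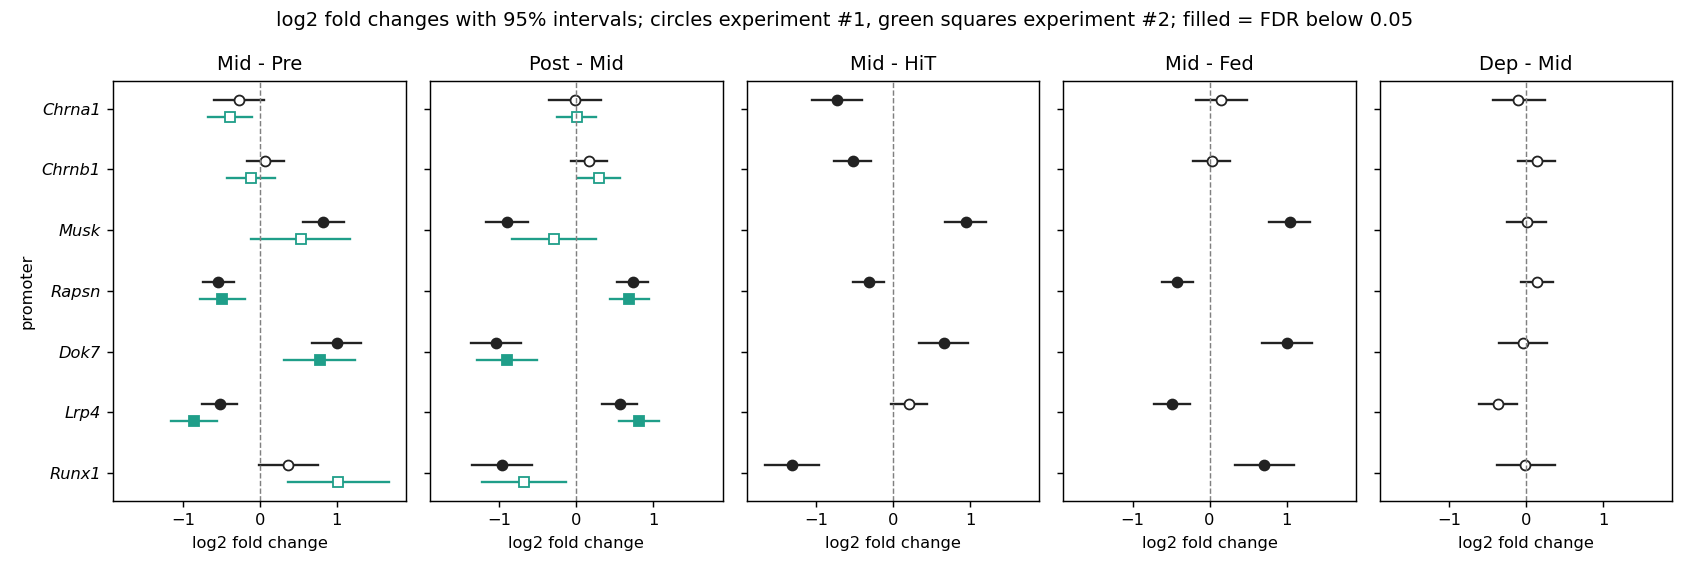
log2 fold changes (x axes) of the 7 promoters (y axis) in the 5 comparisons with the Mid, with 95% intervals; black circles are experiment #1 and green squares experiment #2, which has no HiT, Fed or Dep, and filled symbols passed an FDR of 0.05. *Musk* and *Dok7* lie opposite to *Rapsn* and *Lrp4* in the first 2 panels, and no symbol is filled from the Mid to the Dep.

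Within a library, the ratio of tags at a pair of promoters does not depend on how the library is scaled. *Musk* to *Lrp4*, receptor kinase to agrin receptor, had a ratio of 1.48 to 2.12 in the Pre libraries, 2.84 to 5.81 in the Mid, 1.26 to 1.99 in the Post, 1.94 to 3.53 in the HiT, 1.1 to 1.96 in the Fed and 4.64 to 7.98 in the Dep. The Mid and Dep lay above the Pre, Post and Fed without overlap, and the HiT reached into the range of the Mid. *Dok7* to *Rapsn*, MuSK adaptor to receptor scaffold, had 0.786 to 1.77 in the Pre, 2.05 to 4.55 in the Mid, 0.9 to 1.3 in the Post, 1.60 to 2.21 in the HiT, 1.13 to 1.75 in the Fed and 3.12 to 3.56 in the Dep. The lowest Mid value was that of library Mid 6 and alone overlapped with the HiT. In experiment #2 *Musk* to *Lrp4* had 2.01 to 2.8 in the Pre, 4.19 to 8.86 in the Mid and 2.25 to 3.86 in the Post, and *Dok7* to *Rapsn* 0.73 to 0.926, 1.27 to 3.2 and 0.59 to 0.722, with the Mid above both other groups without overlap. These ratios were chosen after the directions of the single promoters had been seen and are given without a test.

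**Figure D4:**
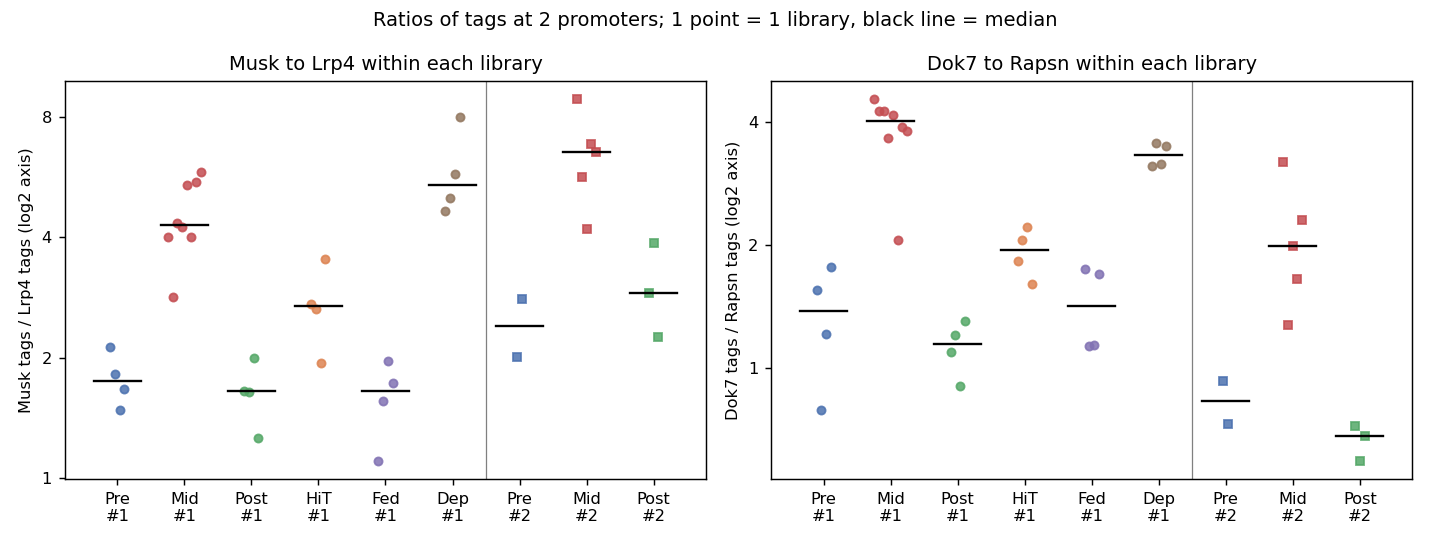
Ratio of *Musk* to *Lrp4* tags (left) and of *Dok7* to *Rapsn* tags (right) on log2 axes in each library of both experiments, by group (x axis); circles are experiment #1, squares experiment #2 and lines medians. In both experiments the Mid medians, 4.28 and 6.54 on the left and 4.03 and 1.99 on the right, are above those of the Pre and Post.

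Experiment #2 asked whether the changes from the Pre to the Mid and from the Mid to the Post recur in other mice. *Lrp4* had 14.7 and 17.1 normalised CPM in the Pre libraries, 9.46, 9.18, 9.47, 7.13 and 8.77 in the Mid, and 13.9, 15.2 and 17.3 in the Post. The Mid libraries lay below all others, with a change of -0.85 from the Pre (SE 0.14, FDR 0.0043) and of 0.81 to the Post (SE 0.12, FDR 0.00122). *Rapsn* had 20.5 and 19.8 in the Pre, 11.8, 17.6, 13.3, 14.9 and 14.1 in the Mid, and 23.3, 24.1 and 21.9 in the Post, again with the Mid below all others. It changed by -0.49 from the Pre (SE 0.13, FDR 0.0463) and by 0.68 to the Post (SE 0.12, FDR 0.00281). *Dok7* had 18.9 and 14.5 in the Pre, 37.8, 22.3, 26.4, 24.6 and 32.4 in the Mid, and 16.8, 14.2 and 14.9 in the Post, with the Mid above all others. It changed by 0.78 from the Pre (SE 0.21, FDR 0.0388) and by -0.90 to the Post (SE 0.18, FDR 0.00604).

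*Musk* was more variable in these mice, with 29.7 and 48 normalised CPM in the Pre libraries, 83.8, 52, 39.6, 48.8 and 57.4 in the Mid, and 40.4, 58.8 and 39 in the Post. The groups overlapped, and the changes of 0.53 from the Pre (SE 0.29, FDR 0.286) and of -0.29 to the Post (SE 0.25, FDR 0.468) were not called. *Runx1* had 2.28 and 2.76 in the Pre, 3.76, 6.08, 4.48, 6.46 and 4.92 in the Mid, and 3.00, 4.12 and 2.58 in the Post. All Mid libraries were above the Pre, by 1.02 (SE 0.30, FDR 0.0536 by edgeR and 0.0169 by DESeq2), and the change to the Post was -0.68 (SE 0.25, FDR 0.0897). *Chrna1* had 18 and 15.3 in the Pre, 14.8, 11.1, 13.4, 12.9 and 11.7 in the Mid, and 13.3, 13.4 and 11.7 in the Post. Here the Pre was above all others, with -0.39 from the Pre to the Mid (SE 0.13, FDR 0.0932). *Chrnb1* had 17.4 and 17.7 in the Pre, 17.7, 16.3, 12.3, 16.7 and 17.8 in the Mid, and 18.3, 19.3 and 21.6 in the Post, and no change was called.

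**Figure D5:**
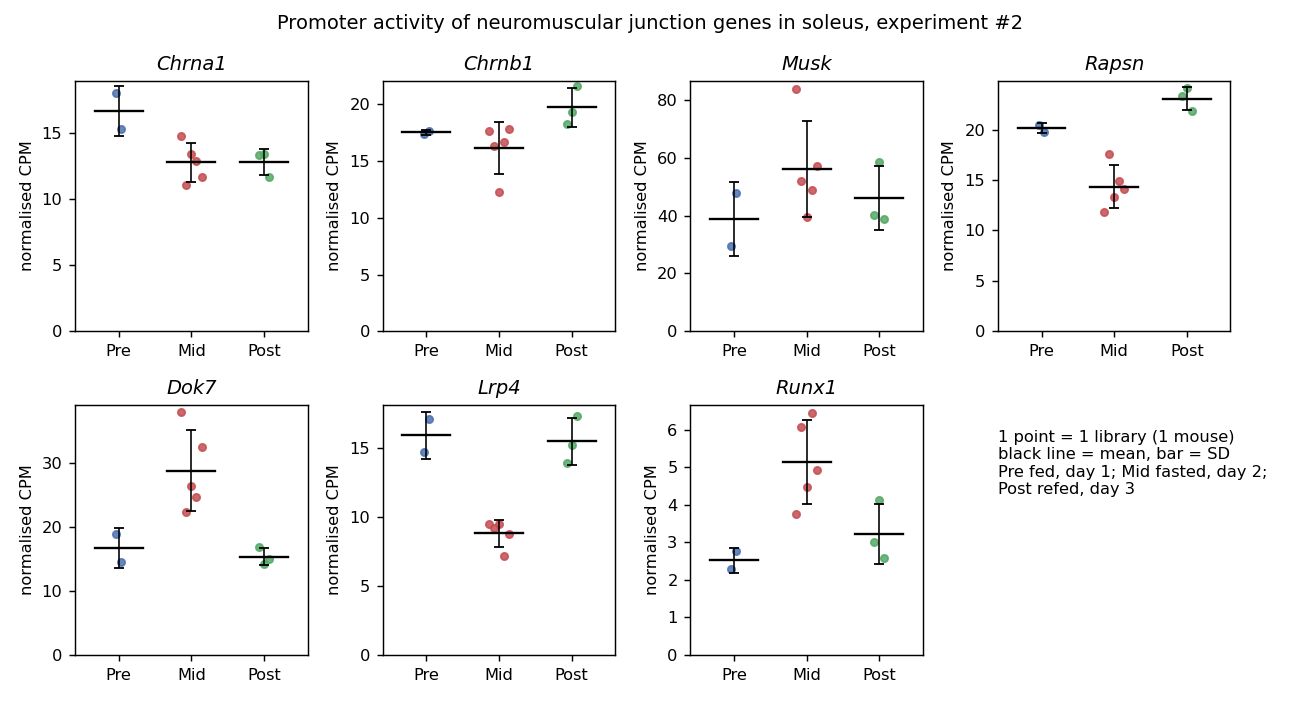
Levels of the 7 promoters in normalised CPM (y axes, from 0) in the 10 libraries of experiment #2 by group (x axes); 1 point is 1 library, the black line the mean and the bar the SD. *Rapsn* and *Lrp4* are lower and *Dok7* higher in all 5 Mid libraries than in the Pre and Post, while the groups overlap for *Musk*.

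In experiment #2, 3 of 7 promoters were called from the Pre to the Mid (*Dok7*, *Rapsn* and *Lrp4*) beside 9.74% of 10816 clusters, and the same 3 from the Mid to the Post beside 16.4%. From the Pre to the Post 0 were called beside 0.111% (1 at an unadjusted p below 0.05, 0 by DESeq2). The 2 Pre and 4 of the Mid libraries were sequenced in lane 3, and 1 Mid and the 3 Post libraries in lane 4. With lane as a term, only *Lrp4* was called from the Pre to the Mid, and *Rapsn* changed by -0.48 (FDR 0.0827) and *Dok7* by 0.73 (FDR 0.0727). From the Mid to the Post only *Dok7* was then called, and *Rapsn* changed by 0.71 (FDR 0.0797) and *Lrp4* by 0.82 (FDR 0.0567). The call of *Lrp4* from the Pre was lost without library Pre 6 (-0.73, FDR 0.0721), that of *Dok7* without Pre 5, Pre 6, Mid 12 or Mid 13 (FDR 0.0509 to 0.276), and that of *Rapsn* without any 1 of the Pre libraries or Mid 9, 11, 12 or 13 (FDR 0.0654 to 0.227). A test of the difference between the experiments called 0 of 7 promoters in either change, beside 0% of 10819 clusters. At an unadjusted p below 0.05 it had 0 from the Pre to the Mid and 1 from the Mid to the Post (*Musk*, 0.58, 95% interval 0.04 to 1.12, FDR 0.749), and DESeq2 also called 0.

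Of 38 other genes of the junction and its signaling, 23 had a cluster. In experiment #1, 3 rose and 2 fell from the Pre to the Mid (30.2% of all clusters called), with a median log2 fold change of 0.05 beside 0.01 over all clusters, and 2 rose and 4 fell from the Mid to the Post (35% called, median -0.05 beside -0.01). From the HiT to the Mid 7 were higher and 3 lower (41.0% called, 0.02 beside 0.02), and from the Fed to the Mid 1 was higher and 7 lower (35.2% called, -0.12 beside 0). Without TMM, the number called fell to 2 from the Pre to the Mid, where all clusters called fell from 3253 to 1458 of 10776. From the HiT to the Mid it fell to 3, where all clusters called fell from 4422 to 2323. With TMM, 2 or 3 were called from the Pre to the Mid without any 1 of the Pre libraries, Mid 4 or Mid 7. *Gabpa*, a subunit of the N-box factor GABP, had 30.5 ± 3.38 normalised CPM in the Pre, 45.4 ± 3.74 in the Mid and 30.8 ± 3.00 in the Post (SD, n = 4, 8 and 4). It rose by 0.57 (SE 0.08, FDR 4.78e-06) and fell by 0.56 on the log2 scale (SE 0.08, FDR 4.02e-06), and in experiment #2 it changed by 0.20 (FDR 0.242) and -0.25 (FDR 0.0728). *Agrn*, the agrin gene, had 15.5 ± 4.48 in the Fed and 7.87 ± 2.25 in the Mid, which was lower by -0.98 (SE 0.19, FDR 0.000322), and 7.54 ± 1.27 in the Pre. *Ache*, the acetylcholinesterase gene, and *Utrn*, the gene of the synaptic dystrophin homolog utrophin, were called in none of these 5 comparisons or of those of experiment #2. *Colq*, *Chrng*, *Erbb2*, *Erbb3*, *Etv5* and *Scn4a* had no cluster.

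Of 16 genes that respond to loss of the nerve, 11 had a cluster, and 4 rose and 3 fell from the Pre to the Mid (30.2% of all clusters called, median 0.14 beside 0.01) and 5 rose and 3 fell from the Mid to the Post (35% called, 0.14 beside -0.01). In the Mid, 1 was higher and 5 lower than in the HiT (41.0% called, -0.25 beside 0.02), and 4 were higher and 4 lower than in the Fed (35.2% called, 0.06 beside 0). Chosen after their values were seen, 3 of them had changes of about 2 on the log2 scale from the Pre to the Mid, *Myod1*, a myogenic transcription factor (-2.17, SE 0.29, FDR 3.88e-06), *Hdac9*, a histone deacetylase (-1.99, SE 0.24, FDR 1.28e-06), and *Cdkn1a*, the gene of the cell cycle inhibitor p21 (2.11, SE 0.26, FDR 1.54e-06). In experiment #2, 1 of the 11 genes rose and 2 fell from the Pre to the Mid (9.74% of all clusters called, median -0.04 beside 0). The genes called there were these 3, in the same direction (-1.33, -1.70 and 2.31, FDR 0.00782, 0.00564 and 0.000886). *Myog*, the gene of myogenin, had 27.8 ± 2.39 normalised CPM in the HiT against 6.65 ± 1.11 in the Pre and 4.80 ± 0.826 in the Mid (SD, n = 4, 4 and 8). All HiT libraries, from 25.4 to 29.9, were above those of the Pre and Mid, and the Mid was lower than the HiT by -2.53 (SE 0.14, FDR 6.61e-13). *Myog* also fell from the Pre to the Mid by 0.47 on the log2 scale (SE 0.14, FDR 0.0155) and rose to the Post by 0.78 (SE 0.14, FDR 0.000139), while in experiment #2 it changed by -0.39 (FDR 0.609) and 0.24 (FDR 0.702). *Hdac4*, a histone deacetylase that links denervation to these genes, rose from the Mid to the Post by 0.93 (SE 0.17, FDR 0.000111) and in experiment #2 by 1.09 (SE 0.13, FDR 0.000312). *Gadd45a*, a stress response gene raised by denervation, rose from the Pre to the Mid by 0.74 (SE 0.22, FDR 0.0134), and in experiment #2 changed by 0.36 (FDR 0.296). *Ncam1*, an adhesion molecule of the junction, was called in none of these comparisons.

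As a description, the 3 genes whose log2 levels followed each promoter most closely over the 28 libraries of experiment #1 are given with Pearson's r, and the libraries are not independent points since they fall into 6 groups. *Dok7* was followed by *Fbxo44* (0.94), *Slc35f5* (0.94) and *Galnt15* (0.93), and in the 10 libraries of experiment #2 these had 0.82, 0.93 and 0.88. *Musk* was followed by *Arl8b* (0.92), *Atp6v1h* (0.92) and *Tpp2* (0.91), but with 0.16, 0.49 and 0.45 in experiment #2. *Rapsn* was followed by *Jmjd8* (0.91), *Gm45338* (0.87) and *Bhlhe40* (0.87), with 0.87, 0.96 and 0.91 in experiment #2, and *Lrp4* by *Sorl1* (0.92), *Ppp1r3a* (0.91) and *Plekhh3* (0.89), with 0.82, 0.74 and 0.89. *Runx1* was followed by *Plod2* (0.90), *Hsp25-ps1* (0.89) and *Hspb1* (0.89), of which *Hsp25-ps1* is a pseudogene that can share tags with *Hspb1*, with 0.69, 0.55 and 0.34. *Chrna1* was followed by *Degs1*, *2210016F16Rik* and *Selenoh* (0.81 each), with 0.33, -0.27 and 0.01, and *Chrnb1* by *Plec* (0.83), *2310011J03Rik* (0.81) and *Gtf2e2* (0.79), with 0.64, 0.65 and -0.26. Among the members, *Musk* and *Dok7* had an r of 0.79 and 0.51 in the 2 experiments, *Rapsn* and *Lrp4* 0.59 and 0.80, and *Dok7* and *Rapsn* -0.77 and -0.94, while *Chrna1* and *Chrnb1* had 0.34 and -0.08.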

How the data were processed

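Tags of 38 nAnT-iCAGE libraries of mouse soleus were analysed. The deposited table holds raw tag counts and TPM per cluster and library; per the methods of the authors, reads were trimmed, mapped to mm10 with BWA and HISAT2 and clustered over all libraries with PromoterPipeline (aligner versions not given in the sources used here). The file header calls the counts rescued, that is, tags that mapped to several places were reassigned, so promoters with near-identical copies are less certain. The TPM values, which the authors made by scaling to library totals, were not tested. Clusters were tied to genes by their peak (500 bp, same strand, GENCODE vM21). Groups came from the sample labels. The 9 genes and the gene lists were chosen with earlier results of these data known. Other genes named come from those lists, or are the 3 most alike in log2 CPM (prior count 1).

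Counts were tested with edgeR 4.0.16 in R 4.3.3 (TMM, quasi-likelihood F test, Benjamini-Hochberg over all clusters with a tag), separately for the 28 libraries of experiment #1 (10776 clusters) and the 10 of experiment #2 (10816), with the difference between experiments in a joint fit of 26 libraries. Intervals are at 95%. Libraries came from separate mice, and none were near-identical. Alternatives were the likelihood ratio test, DESeq2 1.42.0, other scalings, a low-count filter, only the compared groups, a replicate block, lane, both experiments together, a 100 bp window and each library left out. Libraries with the same number in different groups were not treated as pairs. On simulated counts for the change from the Pre to the Mid, 90% of log2 changes of 1 and 49% of 0.5 were recovered in experiment #1 (10773 clusters), and 70 and 9% in experiment #2 (10816 clusters).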

Additional observations from a re-analysis of the deposited data

Results flagged for a closer look

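In each group of 4 to 10 libraries, the gap between the highest or lowest library and its nearest neighbour was set against the range of the group, for the 7 promoters and 49 sets of values in all. In 3 of them the gap passed the 95% limit of Dixon's test, which chance passes in about 1 of 20. *Chrna1* had 20.4 normalised CPM in library Pre 3 of experiment #1, below the other 3 Pre libraries, of which the nearest had 21.4. *Chrnb1* had 12.3 in library Mid 11 of experiment #2, against 16.3 in the nearest of the other 4 Mid libraries. *Lrp4* had 11.7 in library Mid 2 of experiment #1, against 9.6 in the nearest of the other 7 Mid libraries.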

How the results depend on the processing

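Of 2373 values of single promoters under the alternatives, 2309 kept their side of the threshold, 46 lost and 18 gained a call. Of those 2309, 78 were uncalled values whose sign changed, and 0 called values reversed. In the 5 comparisons of experiment #1 with the Mid, the number of the 7 promoters called stayed within 1.5 times that given. Without TMM it fell from 5 to 3 between the HiT and the Post and between the HiT and the Dep. Between the Fed and the Post it rose from 0 to 1 (*Rapsn*) with DESeq2, with its size factors, or without Post 4 or Fed 3, and between the Fed and the Pre from 0 to 1 (*Chrna1*, FDR 0.0218) without Fed 3. In experiment #2, the 3 called from the Pre to the Mid became 1 with only the compared groups and 1 with lane as a term, and 0 to 3 when 1 library was left out (0 without Pre 6, and 1 without Pre 5, Mid 12 or Mid 13). The 3 called from the Mid to the Post became 1 with lane as a term.

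Fitting both experiments together added calls from the Pre to the Mid for *Chrna1* (-0.32, FDR 0.0311) and *Runx1* (0.53, FDR 0.0114), and from the Mid to the Post for *Chrnb1* (0.23, FDR 0.028). Scaling without TMM moved the median log2 fold change of all clusters to 0.11 from the HiT to the Mid and to -0.12 from the Fed to the Mid. It lowered the clusters called from 3253 to 1458 from the Pre to the Mid, with 36.6 in place of 51% of them higher, from 3771 to 1630 from the Mid to the Post, from 4422 to 2323 from the HiT to the Mid, from 3797 to 2181 from the Fed to the Mid (23.3 in place of 47.1% higher) and from 219 to 9 from the Mid to the Dep. In experiment #2, 62.2 in place of 47.2% of those called from the Mid to the Post were then higher. From the Mid to the Dep, 343 clusters were called by the likelihood ratio test, 479 by DESeq2, 407 with the replicate block and 2 with only the compared groups. With lane as a term, 485 in place of 1772 clusters were called from the Mid to the Post in experiment #2, of which 30.5% were higher. The difference between the experiments from the Pre to the Mid was called for 0 clusters, or 8 by the likelihood ratio test and 8 by DESeq2. The cause was not tested.

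With the replicate number as a block, 4, 5, 6, 5 and 0 of 7 promoters were called in the 5 comparisons with the Mid of experiment #1. Of all 10776 clusters, 3147, 3709, 3971, 2841 and 407 were called in the same comparisons with the block. Of 24 pairs of libraries with the same number, 12 had deviations correlated by over 0.1 (r from -0.24 to 0.42 over all pairs). In 10 of the 24, the library of the same number correlated best. These values do not decide whether the numbers pair the libraries, and the main fits did not use them as pairs. The block could not be fitted for the changes to and from the Mid in experiment #2, since the Mid shares no number with the Pre or the Post there.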
